A study of Mus musculus with 2 samples.

Results

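Cytosolic heat shock and chaperonin genes were followed in regulatory T cells (Tregs) of adult mouse back skin and lung. Members were taken by symbol: every gene starting with Hspa, Hspb, Hspd, Hspe, Hsph, Hsp90a or Dnaj, together with Hsf1, Hsf2, Bag3, Stip1, Tcp1 and the numbered Cct genes. The ER chaperone genes Hspa5, Dnajb9, Dnajb11 and Dnajc3 and pseudogene symbols were left out by the rule. This gave 81 of the 27514 gene identifiers that the skin and lung gene lists share. The name rule is wider than the cytosol, since at least 8 members work in mitochondria, at least 5 in the endoplasmic reticulum (ER) and 2 (Hspb11 and Hspbap1) are not chaperones by role. A further 21 members were listed as cytosolic or not assigned to a place. Hspa14 has a different identifier in each list and Cct6a was not analysed here.

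Skin cells came from Foxp3-CreERT2GFP C57Bl/6 mice and lung cells from Foxp3-GFP C57Bl/6 (Tachilla strain) mice, with 1 library per tissue. In both strains GFP reports Foxp3, the transcription factor that defines Tregs, and in the skin strain it is joined to a tamoxifen-inducible Cre. No treatment is given in the labels for either group. Tissue was dissociated with collagenase and sorted for GFP, CD4, CD3 and CD45, and RNA was read by 10x 3′ chemistry, which counts molecules by unique molecular identifiers (UMIs). Tissue, strain, library and gene list changed together and cannot be told apart. So did sex, as Xist had 19928 UMIs in skin and 1 in lung, and the Y-linked Ddx3y 0 and 1799.

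Heat shock proteins and chaperonins bind unfolded proteins and use ATP to help them fold. J-domain proteins (the Dnaj genes) bring clients to HSP70 and start its ATPase cycle, HSP110 proteins and other exchange factors end that cycle, and HSP90 receives signalling proteins through adaptors such as the Stip1 product. Most of these genes are expressed in every cell, while a few, led by Hspa1a, Hspa1b, Dnajb1 and Hspb1, are strongly induced by the heat shock factor HSF1 when cells are heated, digested or otherwise stressed. T cells depend on HSP90 and the CCT ring during activation, for kinases and for actin and tubulin.

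Heat shock factors bind runs of alternating GAA and TTC units. The 250 bases before annotated start sites were searched in RefSeq promoters of assembly GRCm38.p6, in which 65 of the 81 members were found among 27025 genes. The motif letters were the pairs GAANNTTC and TTCNNGAA, each its own reverse complement, and the longer runs GAANNTTCNNGAA and TTCNNGAANNTTC, which contain the pairs and are each other's reverse complement. A GAANNTTC pair was in the windows of 7.73% of all genes and 13 members, a TTCNNGAA pair in 8.11% of genes and 7 members, and a longer run in 0.514% of genes and 3 members (Dnajb6, Hspd1 and Hspe1). Such a match describes letters and is no evidence of binding. The windows of Hspa1a (chr17:34972157-34972406, minus strand) and Hspa1b (chr17:34959239-34959488, minus strand) are shown first because these genes had the largest lung to skin ratios. Capitals mark the only pair in each, 104 to 97 bases before the start, and the windows are identical at 247 of 250 bases.
Hspa1a: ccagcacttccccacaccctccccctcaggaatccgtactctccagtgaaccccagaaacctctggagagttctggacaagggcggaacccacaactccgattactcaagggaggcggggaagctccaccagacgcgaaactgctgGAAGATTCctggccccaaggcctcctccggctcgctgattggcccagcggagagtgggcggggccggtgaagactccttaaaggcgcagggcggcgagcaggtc
Hspa1b: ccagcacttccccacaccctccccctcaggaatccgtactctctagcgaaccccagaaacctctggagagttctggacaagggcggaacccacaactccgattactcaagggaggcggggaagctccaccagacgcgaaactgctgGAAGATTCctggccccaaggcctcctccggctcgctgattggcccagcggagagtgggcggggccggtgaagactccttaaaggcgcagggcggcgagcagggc
Hspe1 and Hspd1, partners in the mitochondrial chaperonin, lie head to head, and a single longer run stands in the windows of both. It is shown because the levels of this pair moved in opposite directions, with capitals for the run within the 30 bases at chr1:55088053-55088082, read on the plus strand for Hspe1 (89 to 72 bases before its start) and on the minus strand for Hspd1 (144 to 127 bases before one of its starts).
Hspe1: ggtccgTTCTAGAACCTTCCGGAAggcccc
Hspd1: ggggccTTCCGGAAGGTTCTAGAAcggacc
Dnajb1 and Stip1 had 0 pairs in their windows, which says only that these letters are not there.

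Cells with at least 1 UMI of Cd3d, Cd3e and Cd3g were kept, 6510 of 6601 barcodes in skin and 8399 of 8730 in lung. They held 15992105 and 23479421 UMIs in shared genes, with medians of 2064.5 and 2364 UMIs per cell. Treg markers fitted the label (Ikzf2 at 1585 CPM, UMIs scaled to a common library total, in skin and 555 CPM in lung), but a Foxp3 UMI was found in only 369 skin cells (5.67%) and 305 lung cells (3.63%). The libraries share 76 barcodes among these cells. The ribosomal protein share of UMIs was 18.9% in skin and 38.2% in lung, and that of a list of 17 dissociation and early response genes 2.14% and 0.705%. RNA of other cell types was present in both: summed levels were 2135 against 213 CPM for 7 fibroblast markers, 63.2 against 3771 CPM for 6 lung epithelial markers, 53.6 against 203 CPM for 5 endothelial markers and 224 against 425 CPM for 7 myeloid markers. The myeloid sum was higher in lung through Lyz2 alone (92.4 against 398 CPM). All other myeloid markers listed were higher in skin, such as H2-Aa at 89.7 against 19.8 CPM. Of the fibroblast markers only Mgp was higher in lung, at 3.88 against 135 CPM. Sftpc, Sftpb, Sftpa1, Scgb1a1 and Cldn18 were at 0 in skin, and Krt5, Krt14, Krt15 and Krt1 at 0 in lung. The skin sum of the lung epithelial list was thus Epcam alone, at 63.2 against 6.35 CPM. Which cells the skin Epcam came from was not tested. The part of these differences in the ratios below was not tested except where values are given.

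As a whole the members took nearly the same share of all UMIs in both tissues. They made up 0.839% of UMIs in skin and 0.777% in lung. Ribosomal protein genes, at 18.9% of UMIs in skin and 38.2% in lung, are part of these totals. On totals without mitochondrial and ribosomal protein genes the member share is higher in lung, so no direction is given. After thinning every cell to 1000 UMIs the median cell held 8 member UMIs in skin and 7 in lung, with quartiles of 6 and 10 and of 5 and 10. The 4 highest members held 49.0% of member UMIs in skin and 48.9% in lung. Hspa8, Hsp90ab1 and Hsp90aa1 were among these in both, joined by Dnaja1 in skin and by Hspe1 in lung.

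**Figure D1:**
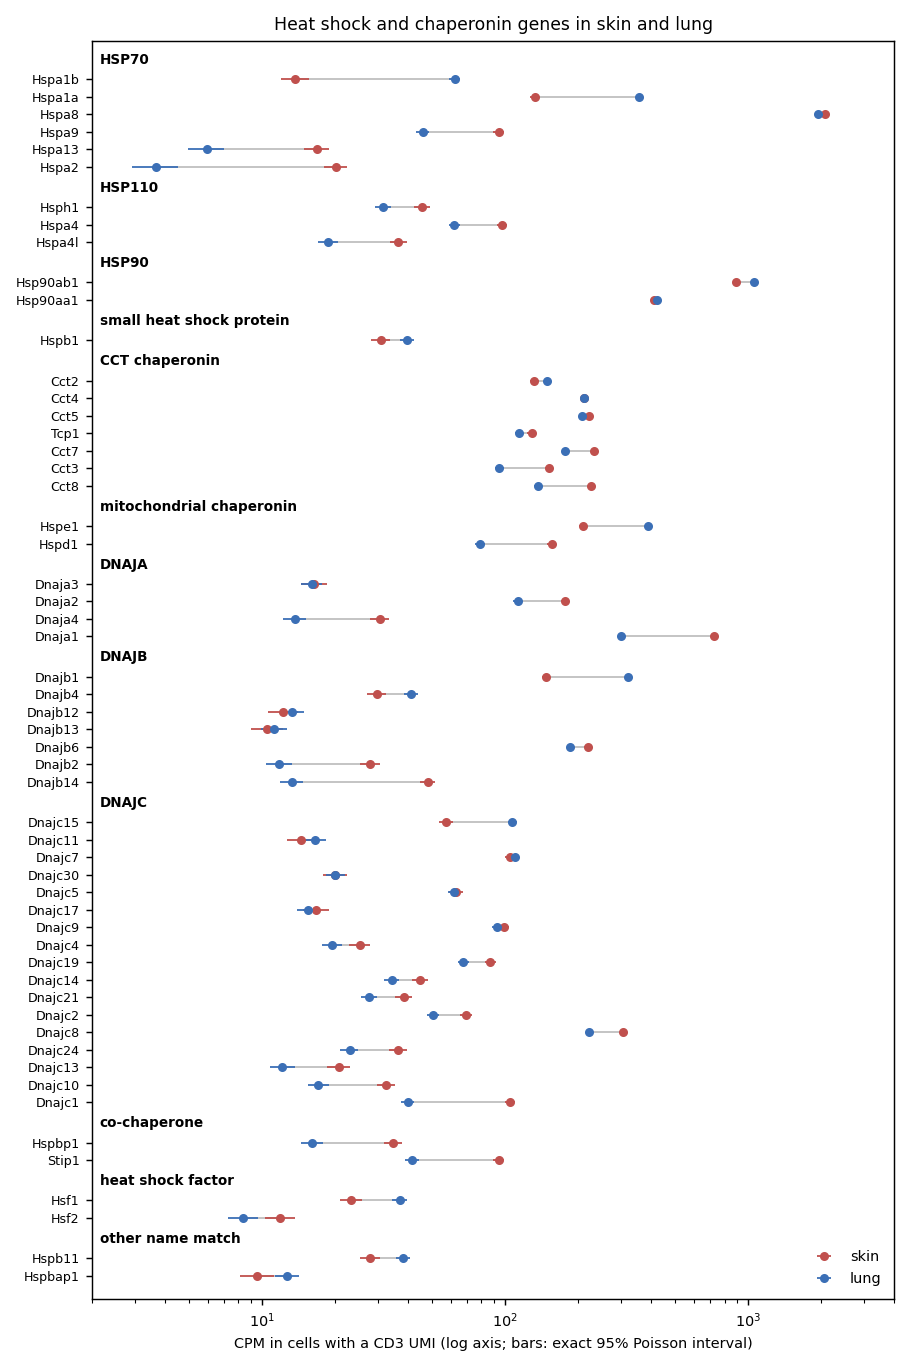
Levels in CPM (log axis) of members in skin and lung cells, with exact 95% Poisson intervals for counting error, 1 library per tissue. Hspa8 stands at 2078 and 1939.9 CPM, while Hspa1a, Hspa1b, Dnajb1 and Hspe1 are higher in lung and Dnaja1 and Hspd1 higher in skin.

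A mean of at least 10 CPM over both libraries was reached by 55 members. Ratios were taken on log2(CPM + 5) as skin over lung, which understates ratios of low genes, and members at least 2-fold apart were counted. There were 5 in skin (Dnajb14, Hspa2, Dnajc1, Dnaja1 and Stip1), or 5 of 55 against 12.5% of all 7126 genes tested. In lung there were 3 (Hspa1b, Hspa1a and Dnajb1) against 4.32% of all genes, and 47 were within 2-fold. Their median log2 ratio was 0.30 (quartiles −0.08 and 0.68), beside 0.31 (−0.03 and 0.66) for all genes. Counts and median were thus near the background, and the members did not move as a block. Centred on the median of all genes, 2 members (Hspa2 and Dnajb14) remained at least 2-fold higher in skin, against 7.68% of genes. On the lung side there were then 5, against 6.92%: Hspa1b at −2.16, Hspa1a at −1.70, Dnajb1 at −1.41, Hspe1 at −1.19 and Dnajc15 at −1.16. With 1 library per tissue no test was possible, and all intervals cover counting error only.

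**Figure D2:**
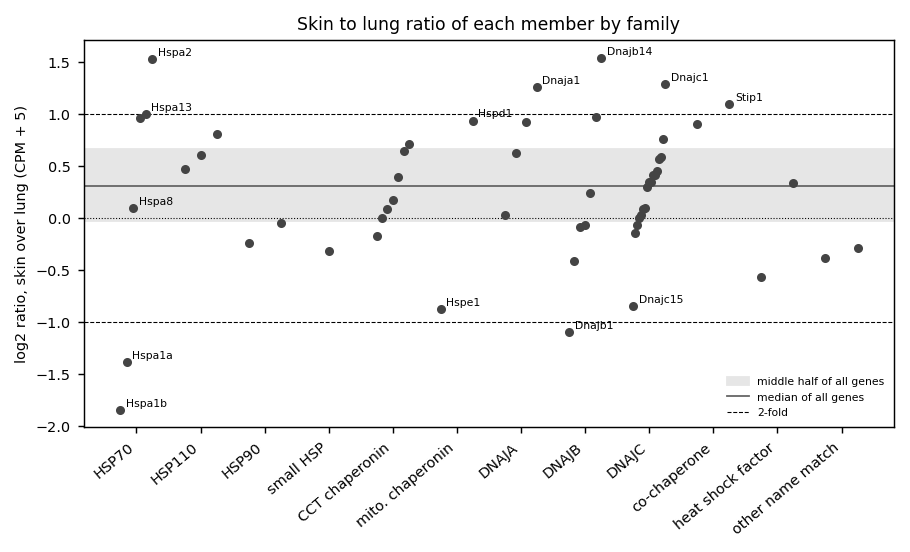
Each point is 1 of the 55 members, placed by family, with its log2 ratio of skin over lung on CPM + 5; the band and line show the interquartile range and the median of all 7126 genes tested, and dashed lines mark 2-fold. Families spread across both sides, from −1.85 for Hspa1b to 1.54 for Dnajb14.

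HSP70 genes split between inducible and constitutive members. Hspa1a, which encodes stress-inducible HSP70 (ENSMUSG00000091971, GRCm38 chromosome 17, 34969190 to 34972156), had a skin level of 133 CPM (127 to 138) and a lung level of 354 CPM (347 to 362), 2.67-fold higher in lung (2.54 to 2.80). Its neighbour Hspa1b (ENSMUSG00000090877, chromosome 17, 34956436 to 34959238), which encodes nearly the same protein, stood at 13.7 CPM (11.9 to 15.6) and 62.2 CPM (59.1 to 65.5), 4.54-fold higher in lung (3.94 to 5.26). Both genes of the pair were thus higher in lung. Their transcripts are 99.2% identical over 2201 bases from the 5′ end, and have no match to each other in the last 770 and 603 bases, where 3′ reads fall. Hspa1b gave 9.35% of the UMIs of the pair in skin and 14.9% in lung. In the cells with a Foxp3 UMI the log2 ratio of Hspa1a shrank from −1.38 to −0.66, under the 2-fold limit, and that of Hspa1b was −1.72. In the 108 skin and 4200 lung cells low in early response genes it was −2.17 for Hspa1a. There Hspa1b stood at −0.96 in place of −1.85, under the 2-fold limit.

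Hspa8, the constitutive cytosolic HSP70 and the highest member, differed little, at 2078 CPM in skin and 1939.9 CPM in lung. Its log2 ratio of 0.10 turned to −0.21 when centred on all genes and to −0.29 on totals without mitochondrial and ribosomal protein genes, so no direction is given. Hspa9, the mitochondrial HSP70, stood at 94.2 against 45.8 CPM (log2 ratio 0.97). Hspa2, an HSP70 best known from male germ cells, was low in both at 20.1 against 3.66 CPM, 5.48-fold higher in skin (4.31 to 7.04), and Hspa13, a microsomal relative, stood at 16.8 against 5.92 CPM. The summed level of all HSP70 genes was 2356 CPM in skin and 2413 CPM in lung. Of the HSP110 exchange factors, all 3 were within 2-fold, Hspa4 at 97.2 against 61.9 CPM, Hspa4l at 36.4 against 18.7 CPM and the inducible Hsph1 at 45.6 against 31.5 CPM.

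Of the 28 J-domain genes that reached 10 CPM, 24 were within 2-fold. There were 3 higher in skin, against 12.5% of all genes, and 1 higher in lung, against 4.32%. Their median log2 ratio was 0.32, beside 0.31 for all genes, so the family as a whole was near the background. Dnajb1, the inducible HSP40 that works with HSP70 (ENSMUSG00000005483, chromosome 8, 83608193 to 83612653), had a skin level of 147 CPM (141 to 153) and a lung level of 321 CPM (314 to 328), 2.18-fold higher in lung (2.08 to 2.28). Dnaja1, a mainly constitutive HSP40 of the cytosol (ENSMUSG00000028410, chromosome 4, 40722150 to 40737149), went the other way, with skin cells at 725 CPM (712 to 739) and lung cells at 299.6 CPM (293 to 307), 2.42-fold higher in skin (2.35 to 2.49). Both are partners of the same HSP70s. In the 11 other cell sets and scalings the log2 ratio ran from −1.72 to −1.06 for Dnajb1 and from 0.88 to 1.28 for Dnaja1. These settings re-use the same 2 libraries, and the scalings shift both genes nearly alike. They are therefore no independent support for the opposition. The lowest Dnaja1 values, 0.95 when centred on all genes and 0.88 both without mitochondrial and ribosomal genes and in cells with few early response UMIs, fall short of 2-fold.

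Shares of cells with a UMI followed the levels. At 1000 UMIs per cell, Dnaja1 was detected in 48.7% of the skin and 26.0% of the lung cells (72.4% and 52.1% unthinned), and Dnajb1 in 13.5% and 28.0% (27.1% and 51.3% unthinned). Barcodes with no CD3 UMI and at least 5 UMIs of other cell types' markers numbered 28 in skin (median 1618 UMIs) and 182 in lung (median 1996). Of these, 28 and 148 were deep enough to thin, with shares of 28.6% and 20.3% for Dnaja1 and 7.14% and 15.5% for Dnajb1. These shares were lower than those of the T cells in each tissue, though none of these cell types should lack the genes. For Dnajb1 in skin counting error covers the gap. Unthinned, 10.7% of the 28 skin barcodes had a Dnajb1 UMI (2.27% to 28.2%), an interval that holds the 27.1% of T cells.

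Of the other DNAJA and DNAJB members, Dnaja2 stood at 176 against 113 CPM and Dnaja4 at 30.5 against 13.6 CPM. Dnajb6, which holds back protein aggregation, stood at 219 against 185 CPM. Dnajb14, an ER membrane J protein, was 3.64-fold higher in skin (3.19 to 4.17) at 48.2 against 13.2 CPM. Dnajb4 was within 2-fold at 29.7 against 41.1 CPM, and Dnajb2 at 27.8 against 11.8 CPM.

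Among the DNAJC genes, a diverse group with roles from splicing to mitochondrial import, 17 of 27 reached 10 CPM. Dnajc1, which encodes an ER membrane J protein, was 2.64-fold higher in skin (2.43 to 2.86) at 105 against 39.7 CPM, but in cells with a Foxp3 UMI its log2 ratio was 0.69 in place of 1.29. The other 16 were within 2-fold. Dnajc15, of the mitochondrial import motor, had the lowest ratio at 57.3 against 107 CPM (log2 ratio −0.85). That ratio was −0.47 in cells without markers of other types and −1.24 both in cells with a Foxp3 UMI and on totals without mitochondrial and ribosomal protein genes. Dnajc8, linked to splicing, was the highest at 307 against 223 CPM, followed by Dnajc7, an HSP70 and HSP90 co-chaperone, at 105 against 110 CPM and the histone chaperone Dnajc9 at 99.0 against 92.3 CPM. Dnajc19, Dnajc5 and the ribosome-associated Dnajc2 stood at 86.9 against 67.4, 62.8 against 61.4 and 69.0 against 50.6 CPM. Dnajc14, Dnajc21, Dnajc24, the ER reductase Dnajc10, Dnajc4 and Dnajc30 lay between 20.01 and 44.8 CPM in skin and between 17.0 and 34.1 CPM in lung, with log2 ratios from −0.00 to 0.76. Dnajc14 shares 55 exonic bases with Sarnp on the same strand, and its counts are uncertain for that reason.

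HSP90 genes were close in both tissues. Hsp90ab1, the constitutive form, stood at 893 CPM in skin and 1055 CPM in lung, and Hsp90aa1, the more inducible form, at 409 and 423 CPM, with log2 ratios of −0.24 and −0.05. Among cells with few early response UMIs these ratios were 0.20 and 0.44, so no direction is given. Among their helpers, Stip1, which links HSP70 to HSP90, was 2.27-fold higher in skin (2.10 to 2.47) at 94.1 against 41.4 CPM. Its log2 ratio of 1.09 fell under 2-fold in cells with a Foxp3 UMI (0.89), when centred on all genes (0.78) and on totals without mitochondrial and ribosomal protein genes (0.75). Hspbp1, an exchange factor for HSP70, stood at 34.6 against 16.1 CPM.

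The CCT ring, which folds actin and tubulin, stayed within 2-fold in all 7 measured subunits. Cct2 stood at 132 CPM in skin and 149 CPM in lung, Cct4 at 212 and 212, Cct5 at 221 and 208, and Tcp1 at 129 and 114. Cct7 (233 and 176 CPM), Cct3 (151 and 94.9 CPM) and Cct8 (227 and 136 CPM) leaned to skin, with log2 ratios of 0.39, 0.65 and 0.71. Proteins of these genes form 1 complex in equal amounts, yet the ratios of the subunits ran from −0.18 to 0.71. Centred on all genes, 4 of the 7 were below 0 and 3 above.

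The mitochondrial chaperonin pair moved apart. Hspd1 encodes HSP60, the barrel (ENSMUSG00000025980, chromosome 1, 55077835 to 55088243), and had a skin level of 156 CPM (150 to 162) and a lung level of 78.7 CPM (75.2 to 82.4), 1.98-fold higher in skin (1.86 to 2.10). Hspe1 encodes HSP10, its lid (ENSMUSG00000073676, chromosome 1, 55088132 to 55091307), and had a skin level of 208 CPM (201 to 216) and a lung level of 388 CPM (380.0 to 396), 1.86-fold higher in lung (1.79 to 1.94). There were 1.34 Hspe1 UMIs per Hspd1 UMI in skin and 4.93 in lung, although the genes share the stretch of promoter printed above. UMIs count molecules and do not grow with transcript length, but capture can differ between genes, so the change between tissues is better measured than either ratio. In the 108 skin and 4200 lung cells low in early response genes, the log2 ratio was −0.10 for Hspe1 in place of −0.88, and 1.59 for Hspd1 in place of 0.94. The 2 still stood apart there, but on Hspd1 alone.

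Small heat shock protein genes were nearly absent, with Hspb1 the only 1 of 7 to reach 10 CPM, at 30.8 against 39.7 CPM. Hspb1 stood at 377 and 1017 CPM in the barcodes without CD3, and the T cells without markers of other types held 22.8 CPM in skin and 8.69 CPM in lung, so that the order of the tissues turned. The transcription factor Hsf1, which induces the heat shock genes, was at 23.3 CPM in skin and 36.8 CPM in lung (log2 ratio −0.56), and Hsf2 at 11.9 and 8.35 CPM. Hspb11, a ciliary transport gene despite its name, stood at 27.8 against 37.9 CPM. Of the 26 members under 10 CPM, 5 had 0 UMIs in both libraries and 15 had a mean under 1 CPM. Bag3, an inducible HSP70 exchange factor, stood at 11.9 against 6.64 CPM.

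Hspa1a was higher in barcodes of other cell types than in T cells. It reached 635 CPM in the skin and 1714 CPM in the lung barcodes without CD3, and thinned shares of cells with a UMI were 6.31% and 17.8% of T cells against 25% and 47.3% of these barcodes (10.7% and 27.8% against 35.7% and 51.6% unthinned). T cells were therefore split by their UMIs of 8 lists of other cell types' markers. These lists include Epcam, which was higher in skin, and its part in the skin split was not tested. In skin, Hspa1a and Hspa1b together stood at 93.7 CPM (85.6 to 102) in the 2585 cells with none, 118 CPM in the 3713 cells with 1 to 4 and 606 CPM (563 to 652) in the 212 cells with 5 or more, a group of 3.26% of cells with 30.9% of the UMIs of the pair. In lung they stood at 401 CPM (382 to 420) in 1948 cells with none, 380.0 CPM in 5996 and 710 CPM (676 to 745) in 455. The tissues differed most in the cells free of such markers, where the log2 ratio was −1.97 for Hspa1a and −2.09 for Hspa1b, and least in those with 5 or more. Dnajb1 did not rise with the markers, at 148, 149 and 129 CPM in skin and 353, 320 and 267 CPM in lung.

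**Figure D3:**
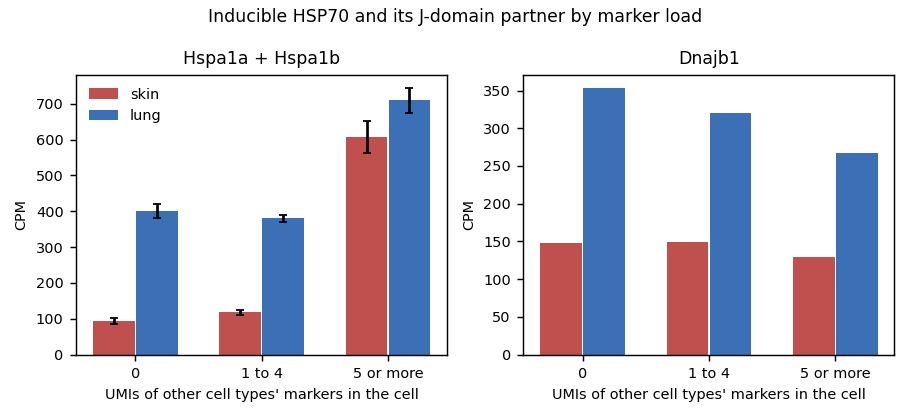
Levels in CPM of Hspa1a plus Hspa1b (left, with exact 95% Poisson intervals) and of Dnajb1 (right) in T cells with 0, 1 to 4, or 5 or more UMIs of other cell types' markers, in skin and lung. In cells with 0 such UMIs the Hspa1 pair is at 93.7 CPM in skin and 401 CPM in lung, and only the skin level climbs several-fold with the markers.

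UMIs of the Hspa1 pair were gathered in few cells. At 1000 UMIs per cell, 7.07% of skin and 20.5% of lung cells held any, where an even spread would put them in 12.0% and 34.9%. At least 3 were found in 77 skin cells (1.18%) and 437 lung cells (5.28%), with up to 24 and 14 in a cell. The variance over the mean was 4.20 and 3.06, against 1.19 and 1.23 for Dnajb1 and 1.47 and 1.21 for Hspa8. In 90% of all genes with a mean of at least 0.05 UMIs per thinned cell the value was under 1.18 in skin and 1.19 in lung. Above these lines were 6 of 29 members in skin and 6 of 25 in lung. They included Hspa8, Dnajb1 and both HSP90 genes in both tissues, and Dnaja1 (1.43) in skin. Dnajb1 in skin was close to the line. Genes of like level were not compared, so the part of level in these values was not tested.

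Cells with a UMI of the Hspa1 pair were set against those without, within each library, and members at least 1.5-fold apart were counted. In skin 3 of 55 members were higher in the 460 positive cells, against 7.98% of genes: Hspb1 (82.9 against 26.6 CPM), Bag3 (20.7 against 11.2 CPM) and Dnajb1 (249 against 139 CPM). Dnajc2 was lower, 1 of 55 against 1.35% of genes. In lung 2 of 50 were higher in the 1695 positive cells, against 3.24%: Hspb1 (114 against 20.7 CPM) and Hsph1 (48.1 against 27.1 CPM). None was lower, against 0.687%. Markers of other cell types moved with this split, at 11918 against 1756 CPM in skin and 10776 against 3070 CPM in lung. Early response genes took 2.49% against 2.12% of UMIs in skin and 0.858% against 0.664% in lung. The comparison was repeated in cells free of the markers, an alternative chosen after seeing the data. There, 3 of 52 members were higher in skin (6.8% of genes) and 4 lower (8.74%), and 2 of 48 were higher in lung (3.01%) and 0 lower (6.15%). Early response genes took 2.70% against 2.26% of UMIs in these skin cells and 0.848% against 0.700% in these lung cells, and their part was not tested. The 164 positive skin cells had 1.76 times the Dnajb1 (1.37 to 2.23) and 1.75 times the Hsp90aa1 (1.51 to 2.03) of the 2421 others, while Hspb1 was at 0.846 times. Dnajb12, the third member called higher, rested on 7 UMIs and was at 2.12 times (0.815 to 4.69), and the 4 called lower were Dnajc2, Dnajc14, Dnajc21 and Hspa13, with 1 to 13 UMIs each. The 367 positive lung cells had 2.03 times the Hsph1 (1.40 to 2.92) and 1.34 times the Hsp90aa1 of the 1538 others, with Dnajb1 at 481 against 322 CPM, and Hspb1 was at 3.25 times (1.60 to 6.48). The rise of Hsph1 was not seen in skin, at 0.797 times (0.392 to 1.45) without the markers and 1.18 times (0.898 to 1.53) in all cells. In all cells Hsp90aa1 was at 1.39 times in both tissues and Dnajb1 at 1.80 times in skin and 1.49 times in lung, so Dnajb1 passed 1.5-fold in skin alone and Hsp90aa1 only in the marker-free skin cells. The skin ratio of Hspb1 was 3.12 in all cells and under 1 without the markers. Hspa8 was at 1.23 times in skin and 1.03 times in lung in the marker-free cells.

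**Figure D4:**
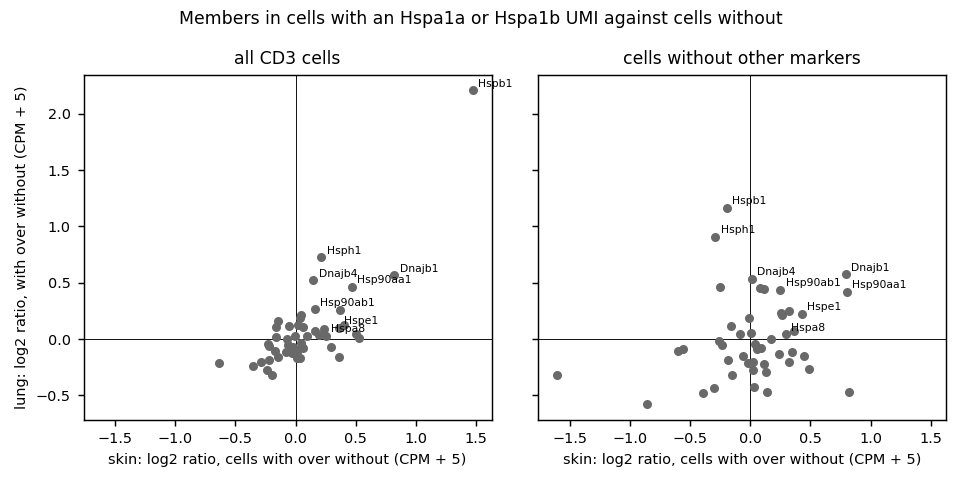
Log2 ratio (CPM + 5) of each member between T cells with and without a UMI of Hspa1a or Hspa1b, with skin on the x axis and lung on the y axis, for all cells (left) and for cells with 0 UMIs of other cell types' markers (right). Hspb1 stands far out in both tissues on the left and in lung alone on the right, while Dnajb1 and Hsp90aa1 lie above 0 in both tissues in both panels.

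Dividing cells, with at least 2 UMIs of 10 division genes after thinning, numbered 81 in each library. Of 54 members tested in skin, 3 were higher in them by 1.5-fold or more (15.1% of genes) and 7 lower (12.6%), and in lung 6 of 51 were higher (25.1%) and 6 lower (12.3%). Dnajc9, which escorts newly made histones, was higher in both, at 257 against 93.5 CPM in skin and 179 against 87.9 CPM in lung. Hsp90aa1 stood at 772 against 398 CPM in skin and 557 against 417 CPM in lung. The 7 CCT subunits had log2 ratios from 0.20 to 0.47 in skin and from 0.16 to 0.98 in lung, beside medians of 0.029 and 0.19 for all genes. In lung 2 of the 7 passed 1.5-fold, Tcp1 (221 against 110 CPM) and Cct2 (255 against 145 CPM), a share near that of all genes. The members lower in dividing cells were a share near that of all genes in each library, and Dnajb4, Hspb1 and Hsf1 were lower in both. Of those lower in lung alone, Hspa1a stood at 132 against 359 CPM and Dnajb1 at 169 against 327 CPM. Hsph1 was within the limit in lung at 26.8 against 31.4 CPM. In skin Hspa1a and Dnajb1 stood at 115 against 137 and 112 against 148 CPM, within 1.5-fold. Dividing cells held more RNA (medians of 3911 against 2041.5 UMIs in skin and 6841 against 2360 in lung) and fewer other-cell markers (901 against 2693 CPM and 483 against 4921 CPM). Early response genes took 1.48% against 2.18% of their UMIs in skin and 0.331% against 0.721% in lung, and ribosomal protein genes 16.8% against 19.0% and 27.3% against 38.8%. The part of these shares in the differences was not tested.

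In skin, a split by genes induced by the T cell receptor, such as Nr4a1 and Irf4, moved few genes of any kind. A rise of 1.5-fold or more was seen for 0 of 55 members in the 4135 cells with 2 or more such UMIs against the 896 with none (0.613% of genes), and a fall for 0 (0.926%). These counts were near the shares of all genes and say nothing particular about the members. In lung 3 of 53 were higher in 487 such cells than in 6132 (7.57%): Hspb1 (146 against 27.2 CPM), Bag3 and Hspa1b (97.8 against 55.5 CPM). Hspa1a stood at 479 against 341 CPM there, and at 126 against 147 CPM in skin. In these lung classes early response genes took 1.14% against 0.644% of UMIs, and markers of other cell types stood at 6977 against 5028 CPM, with 12 of 17 higher, and the part of neither was tested.

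Of 57 other genes of the pathway, 49 reached 10 CPM. Skin was at least 2-fold higher for 9 of them (12.5% of all genes) and lung for 0 (4.32%), and their median log2 ratio was 0.43, beside 0.31 for all genes. The highest were Serpinh1, the collagen chaperone, at 76.5 against 15.0 CPM, the ER chaperones Hsp90b1 (349 against 93.1 CPM) and Hspa5 (573 against 177 CPM), and the metallothionein Mt2 (18.4 against 3.24 CPM). The fibroblast markers given above, except Mgp, were also higher in skin, and the part of fibroblast RNA in the Serpinh1 level was not tested. The lowest were Hscb (16.0 against 30.4 CPM), the mitochondrial protease subunit Clpp (27.1 against 47.0 CPM), Dedd2 (31.6 against 52.5 CPM) and Bag4 (14.8 against 21.5 CPM). Of 12 HSP70 exchange factors and partners, 11 reached 10 CPM and all 11 were within 2-fold (median 0.01), as were 8 of 9 prefoldin and CCT partners and 12 of 14 co-chaperones of HSP90. Zfand2a, a stress-induced gene under the 10 CPM limit that was named after its values were seen, stood at 3.63 against 8.09 CPM, a plain ratio 2.23-fold higher in lung (1.65 to 3.05). Other stress genes under the limit went the other way. Hmox1 stood at 7.69 against 1.70 CPM, 4.51-fold higher in skin (3.14 to 6.62), and Cryab at 7.63 against 5.58 CPM.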

How the data were processed

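Per the labels' protocols, sorted cells were read with 10x 3′ v2 chemistry, and the authors deposited raw UMI counts per gene and barcode with no normalization. Cell Ranger and mm10 are named in the submitters' processing notes, and per the file headers the lung tables were written by software version 3.0.2. A second lung table, all of whose 8626 barcodes occur in the first, served only as an alternative.

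The skin and lung lists hold 27998 and 31053 genes, and totals for CPM were taken over the 27514 identifiers in both. Counts were summed over cells with at least 1 CD3 UMI. Genes with a mean of at least 10 CPM were compared on log2(CPM + 5), with 2-fold apart as the limit between tissues and 1.5-fold between cell classes. Folds printed for single genes are plain CPM ratios. Levels carry exact 95% Poisson intervals, ratios exact binomial intervals and cell shares Clopper-Pearson intervals, for counting error only. Classes were made on cells thinned to 1000 UMIs (117 lung cells and 0 skin cells were shallower), and were compared on unthinned sums. No doublet caller was used, and removing the 5% of cells with the most UMIs was an alternative. With 1 library per tissue no test was run. A further cell class comparison is not reported here.

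Members with a mean of at least 20 CPM or at least 2-fold apart are named with levels, the 8 highest and 8 lowest ratios and the best known genes in more detail. Members and lists were chosen with earlier results of these data known. Positions are from GENCODE M21 (GRCm38), counted from 1, and promoters from RefSeq. No gene with a near-identical transcript end is in either gene list. The scripts (Python 3.11.15, numpy 2.4.6, scipy 1.17.1, pandas 2.3.3) were tested on simulated counts.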

Additional observations from a re-analysis of the deposited data

How the results depend on the processing

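No paired analysis was possible because there is 1 library per tissue, and for the same reason no replicate could be left out. Of 17 alternatives, these moved the 5 members at least 2-fold higher in skin (12.5% of all genes) by over 1.5 times, with the share of all genes under the same setting in brackets: 10 with 1 CPM added (15.8%) and 3 with 20 CPM added (6.88%) before log2, 3 with a mean of at least 50 CPM (15.1%), 2 on totals without mitochondrial and ribosomal protein genes (7.82%), 2 when centred on the median of all genes (7.68%), 2 in cells with a Foxp3 UMI (14.0%), 10 in cells with 0 UMIs of other cell types' markers (15.4%), 18 at 1.5-fold (29.6%) and 0 at 3-fold (5.43%). The 3 higher in lung (4.32%) became 5 without mitochondrial and ribosomal protein genes (7.94%), 5 when centred (6.92%), 5 at 1.5-fold (8.18%) and 1 at 3-fold (1.70%). The median log2 ratio of 0.30 became 0.10 with no filter on low levels, -0.021 without mitochondrial and ribosomal protein genes and -0.0088 when centred, beside 0.05, −0.03 and 0.00 for all genes. Over 11 alternatives the log2 ratios of single members gave 605 values, of which 232 moved beyond counting error and 0 reversed a call. The cause of these moves was not tested, except that centring subtracts the shift of all genes. Cells low in early response genes number 108 in skin (1.66%) and 4200 in lung. Depth limits the 26 members under 10 CPM, for which no ratio is read.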
